A study of Homo sapiens with 8 samples.

Results

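Elongation and termination factors of the ribosome carry methyl groups placed by dedicated protein methyltransferases, and the genes of these enzymes were followed here through a CRISPR guide against the best known of them, METTL13. The set was fixed by gene symbol: METTL13, EEF1AKMT1, EEF1AKMT2, EEF1AKMT3, EEF1AKMT4, EEF2KMT, METTL18 and N6AMT1. Of these 8 genes, 7 were found among the 14668 gene symbols of the count table, and N6AMT1 was not analysed here. All 8 libraries came from T3M4, an established human pancreatic cancer cell line, expressing either a non-targeting guide (sgControl) or a METTL13 guide (sgMETTL13). In every group the cells went without serum for 18 h and then received 10% FBS for 2 h before lysis. Poly(A) RNA-seq (mRNA) and ribosome profiling (footprints, the mRNA fragments shielded by ribosomes) each gave 2 libraries per guide, 4 groups in all. The sources used here do not give the guide sequences, the number of guides or clones, or whether replicates were separate cultures, so the p-values here reflect the spread between these libraries alone.

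The eukaryotic elongation factor eEF1A brings aminoacyl-tRNA to the ribosome and is methylated at its N terminus and at several lysines. METTL13 carries 2 methyltransferase domains and modifies both the N terminus and a lysine of eEF1A, while EEF1AKMT1 to EEF1AKMT4 each methylate another lysine of the same protein. EEF2KMT methylates a lysine of the translocation factor eEF2, METTL18 a histidine of the ribosomal protein encoded by RPL3, and N6AMT1, with its partner TRMT112, a glutamine of the release factor eRF1, the product of ETF1. These enzymes use S-adenosylmethionine as methyl donor and share the seven-beta-strand fold.

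Several of the substrate genes are known for mRNAs that open with a C followed by a pyrimidine tract (the 5′ TOP motif), a feature that ties their translation to growth signals such as serum. The annotated starts are shown here to set the enzymes beside their substrates on that feature. Each line gives, 5′ to 3′ on the gene's strand, the 10 bases before the RefSeq start in lower case and the first 15 transcribed bases in capitals (GRCh38.p14). The RefSeq table used had entries for 4 of the members and 4 of the substrates.
METTL13, chr1:171781650-171781674, plus strand: gaggcttcgcACCCGGATATGGTTA
EEF1AKMT2, chr10:124791873-124791897, minus strand: cgtccgctctGCCTGTGCCCCGTCT
EEF1AKMT4, chr3:184249662-184249686, plus strand: gccggcggctCTGGCTGCCCGGCGG
METTL18, chr1:169794893-169794917, minus strand: gactcgactcACTGGTGCGCGATTT
EEF1A1, chr6:73521018-73521042, minus strand: cgtgaacgttCTTTTTCGCAACGGG
EEF2, chr19:3985449-3985473, minus strand: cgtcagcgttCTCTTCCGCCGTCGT
RPL3, chr22:39319609-39319633, minus strand: gccgaccggcCTCTACCGGCGGGAT
ETF1, start 1, chr5:138543222-138543246, minus strand: aggaagtgatGTCACAGGCCCCATG
ETF1, start 2, chr5:138541697-138541721, minus strand: cattcttagaATAGTAGAATGGCCT
A run of at least 4 pyrimidines that begins with C at the first transcribed base stood at 6.22% of the 17352 annotated starts of genes in the count table. EEF1A1 and EEF2 opened with a run of 7 and RPL3 with a run of 4. Among the methyltransferases shown, EEF1AKMT4 opened with a run of 2 and the starts shown for METTL13, EEF1AKMT2 and METTL18 did not begin with C, nor did those of ETF1.

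Libraries held 20860953 to 48353722 counts in RNA-seq and 6063885 to 9837253 counts in footprints. The RNA libraries of sgMETTL13 stood apart from each other: the SD over genes of the log2 difference between replicates, computed on CPM + 1, was 0.81 between them, compared with 0.34 for the sgControl RNA pair and, in footprints, 0.30 for sgControl and 0.25 for sgMETTL13. Values below are CPM (counts scaled to library size, with TMM factors), and log2 fold changes are sgMETTL13 over sgControl from edgeR's quasi-likelihood test with Benjamini-Hochberg adjustment over all genes tested, where an adjusted p below 0.05 counts as passed. All 7 epithelial markers examined (keratins 7, 8, 18 and 19, EPCAM, CDH1 and MUC1) were present in RNA, with a summed level of 3625 to 4165 CPM in sgControl and 2872 to 4188 CPM in sgMETTL13. Of the leukocyte markers measured, PTPRC had 0 to 2 counts and LYZ 0 to 9 counts per RNA library, the acinar marker PRSS1 had 0 to 1, and the 4 fibroblast markers measured summed to 27.0 to 32.7 CPM in sgControl and 23.6 to 32.8 CPM in sgMETTL13, mostly from COL1A1.

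METTL13, the targeted gene (chromosome 1, 171781660 to 171797716), was the single member among the 6 tested whose footprint difference passed. Its footprints read 65.2 and 57.8 CPM in sgControl replicates 1 and 2, against 20.1 and 26.2 CPM in sgMETTL13 replicates 1 and 2. The guides did not overlap, and the sgMETTL13 libraries kept 32.7% and 42.7% of the mean sgControl level. The log2 fold change was -1.41 (SE 0.164, 95% interval -1.75 to -1.08, n = 2 per guide, edgeR adjusted p = 6.38e-07). Of the 10714 genes tested in footprints, 51 had a lower fold change than METTL13 and 22 a smaller p. Of the 6 members tested, this 1 passed, in the lower direction, where 12.0% of all genes tested passed as lower, 8.94% as higher and 21.0% in either direction. In 1 fit over all 8 libraries the METTL13 estimate was again -1.41, but it did not pass (edgeR adjusted p = 0.418). No gene passed in footprints in that fit (971 had an unadjusted p below 0.05 in edgeR), so it ended every footprint call given below, while DESeq2 on the footprint libraries called 1371 genes. In bulk samples, fewer cells carrying the transcript and less of it per cell cannot be told apart.

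METTL13 mRNA showed a difference of the same size on a wider interval. It read 89.7 and 71.4 CPM in sgControl against 25.2 and 35.1 CPM in sgMETTL13, again without overlap, and the sgMETTL13 libraries stood at 31.3% and 43.5% of the sgControl mean. The log2 fold change was -1.42 (SE 0.406, 95% interval -2.31 to -0.53), with an unadjusted p of 0.00457 and an adjusted p of 1.00 by edgeR's quasi-likelihood test. Of 12468 mRNAs tested, 15 had a lower fold change and 3 a smaller p. The test called 0.00% of all mRNAs, with 100 of them at an unadjusted p below 0.05. The same count of 0 came from limma voom and from DESeq2. With 1 RNA library left out, the METTL13 mRNA difference passed only without sgMETTL13 replicate 2 (-1.68). It did not pass without sgControl replicate 1 (-1.22), sgControl replicate 2 (-1.58) or sgMETTL13 replicate 1 (-1.13).

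Footprints per mRNA, often called translational efficiency, is the interaction of assay and guide in 1 model of all 8 libraries. For METTL13 it differed by 0.02 on the log2 scale (SE 0.403, 95% interval -0.89 to 0.93). In level, METTL13 had 0.76 footprint CPM per mRNA CPM in sgControl and 0.77 in sgMETTL13. The medians of this ratio over all genes past the filter in both assays were near, 0.86 in sgControl and 0.78 in sgMETTL13. The interval spans nearly a doubling or a halving, so a moderate change in footprints per mRNA was not detectable with these libraries. No gene passed in this contrast by edgeR (0.00% of 10446, with 347 at an unadjusted p below 0.05) or limma voom, and 5 passed by DESeq2.

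**Figure D1:**
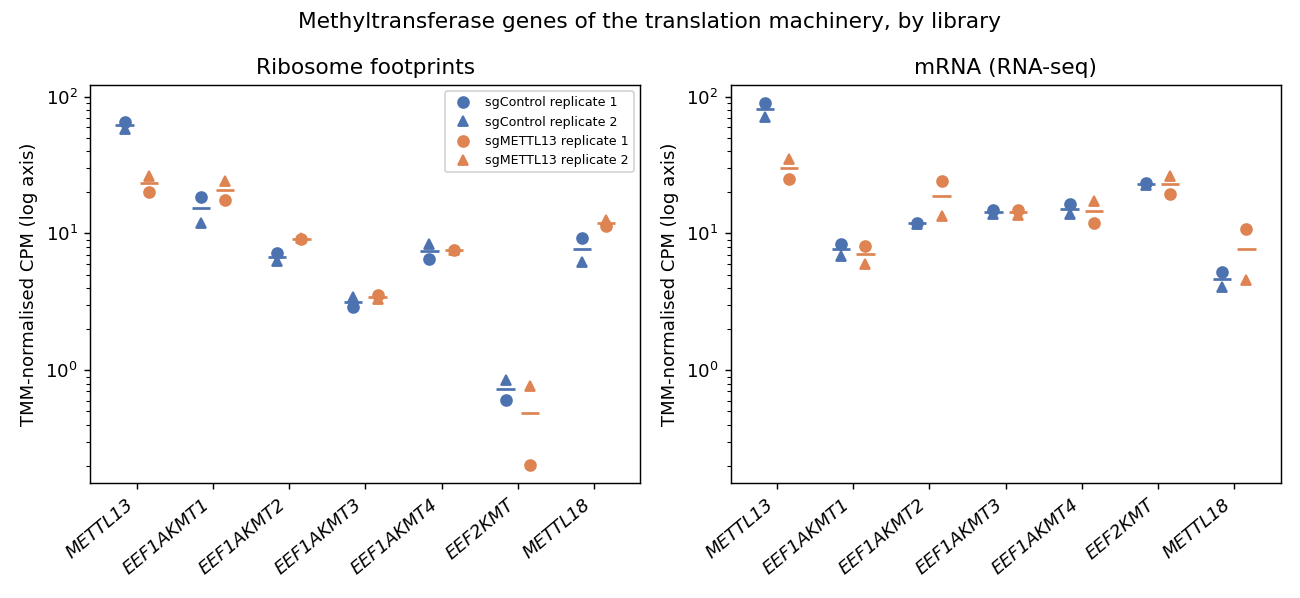
TMM-normalised CPM (log axis) of the 7 methyltransferase genes in each library, footprints on the left and mRNA on the right, with circles for replicate 1, triangles for replicate 2 and lines for the mean of each guide. METTL13 falls in both assays, from 57.8 to 65.2 CPM down to 20.1 to 26.2 CPM in footprints; CPM is not per gene length, so heights compare libraries within a gene and not genes with each other.

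The other eEF1A lysine methyltransferases showed no footprint change that passed, with fold changes from 0.04 to 0.43. EEF1AKMT1 (chromosome 13, 20728731 to 20773961) read 18.5 and 11.97 CPM in sgControl footprints against 17.6 and 24.2 CPM in sgMETTL13. The guides overlapped, and sgControl replicate 2 lay lowest. Its log2 fold change was 0.43 (SE 0.210, 95% interval -0.00286 to 0.86, edgeR adjusted p = 0.147). Without sgControl footprint replicate 1 it was 0.80 and passed (edgeR adjusted p = 0.00875), while it was 0.16 without sgControl footprint replicate 2 and 0.19 without sgMETTL13 footprint replicate 2.

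EEF1AKMT2 (chromosome 10, 124756253 to 124791887) read 7.14 and 6.33 CPM in sgControl footprints against 9.04 and 9.22 CPM in sgMETTL13. Both sgMETTL13 libraries lay above both controls, but the log2 fold change of 0.43 (SE 0.242, 95% interval -0.06 to 0.92) did not pass (edgeR adjusted p = 0.210). Together with METTL13 and METTL18 it was 1 of 3 of the 6 tested members without overlap in footprints, where 64.1% of all genes tested did not overlap.

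EEF1AKMT3 (chromosome 12, 57772614 to 57782541) had few footprints, 24 and 20 counts in sgControl and 35 and 30 in sgMETTL13, or 2.90, 3.42, 3.56 and 3.29 CPM. The guides overlapped and the log2 fold change was 0.13 (SE 0.319, 95% interval -0.52 to 0.78, edgeR adjusted p = 0.811). With 1 footprint library left out it ran from 0.0044 (without sgControl replicate 1) to 0.23 (without sgControl replicate 2).

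EEF1AKMT4 (chromosome 3, 184249672 to 184258759) had the smallest footprint difference of the set. It read 6.53 and 8.38 CPM in sgControl against 7.52 and 7.57 CPM in sgMETTL13, with both sgMETTL13 libraries between the controls. The log2 fold change was 0.04 (SE 0.248, 95% interval -0.47 to 0.54, edgeR adjusted p = 0.938). This gene lies inside the span of a readthrough gene, EEF1AKMT4-ECE2, which begins at the same base. The readthrough symbol held 27, 21, 37 and 41 footprint counts, 30.0% to 37.3% of the sum of both symbols, and 0 counts in every RNA library. How reads in the shared stretch were assigned in each assay is not given in the sources used here, so the EEF1AKMT4 footprint level and its ratio to mRNA are uncertain.

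METTL18, the histidine methyltransferase of the RPL3 product (chromosome 1, 169792529 to 169794907), came closest to the threshold after METTL13, and on the higher side. Its footprints read 9.32 and 6.16 CPM in sgControl against 11.3 and 12.5 CPM in sgMETTL13. The guides did not overlap, and the log2 fold change was 0.59 (SE 0.237, 95% interval 0.11 to 1.07, unadjusted p = 0.0185, edgeR adjusted p = 0.0729). It passed without the filter on low counts (0.61, edgeR adjusted p = 0.0413) but not with DESeq2 (0.60, DESeq2 adjusted p = 0.231). Without sgControl footprint replicate 1 it was 0.95 and passed, while without sgControl footprint replicate 2 (0.35) or either sgMETTL13 footprint library it did not.

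EEF2KMT, the eEF2 lysine methyltransferase (chromosome 16, 5084284 to 5097795), had mRNA but hardly any footprints counted. Its footprint counts were 5 and 5 in sgControl and 2 and 7 in sgMETTL13, below the expression filter, so no test was made. Exact Poisson 95% intervals, which cover counting error only, ran from 1.62 to 11.7 for a count of 5, from 0.242 to 7.22 for 2 and from 2.81 to 14.4 for 7. Its RNA counts were 866 and 468 in sgControl and 917 and 1056 in sgMETTL13. EEF2KMT belongs to the FAM86 family of near-identical copies, and the footprint counts of FAM86B1 and FAM86B2 were the same as each other in every library (2, 2, 0 and 5). How reads that match several copies were counted is not given in the sources used here, so the EEF2KMT values are uncertain.

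**Figure D2:**
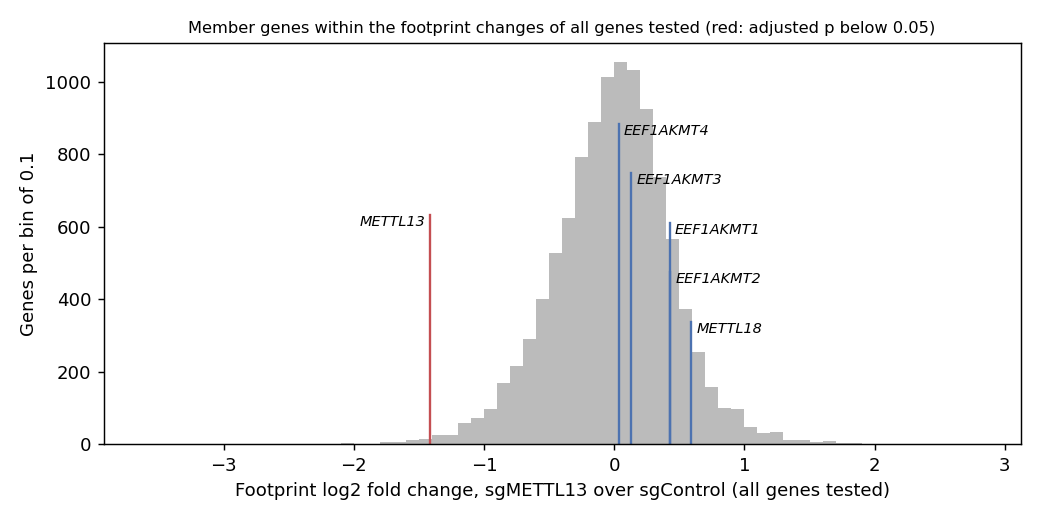
Number of genes per bin of 0.1 in footprint log2 fold change (sgMETTL13 over sgControl) for the 10714 genes tested, with vertical lines at the 6 members that were tested. METTL13 lies at -1.41 in the lower tail and the other 5 lie between 0.04 and 0.59.

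At the mRNA level no member passed. EEF1AKMT2 read 11.9 and 11.8 CPM in sgControl against 24.0 and 13.5 CPM in sgMETTL13, so that replicate 1 of sgMETTL13 stood far above the other 3 libraries (log2 fold change 0.67, SE 0.463). METTL18 mRNA read 5.25 and 4.09 CPM in sgControl against 10.9 and 4.54 CPM in sgMETTL13, with the same library on top (0.72, SE 0.506). The edgeR adjusted p was 1.00 for both. METTL13 and EEF1AKMT2 were the 2 of 7 members without overlap in mRNA, where 12.0% of all mRNAs tested did not overlap.

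The mRNA differences of EEF1AKMT2 and METTL18 rested on which sgMETTL13 RNA library was kept. Without sgMETTL13 RNA replicate 2, which leaves 1 RNA library of that guide, the fold changes were 1.02 for EEF1AKMT2 and 1.205 for METTL18. The lowest values over all left-out libraries came without replicate 1, at 0.26 for EEF1AKMT2 and 0.02 for METTL18. The part of this library difference in those results was not tested.

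For the remaining genes the mRNA levels of the guides overlapped. EEF1AKMT1 mRNA read 8.42 and 6.84 CPM in sgControl against 8.13 and 6.01 CPM with the METTL13 guide (log2 fold change -0.11, 95% interval -1.07 to 0.85). EEF1AKMT3 mRNA read 14.9 and 13.9 CPM against 14.9 and 13.7 CPM (-0.01, 95% interval -0.95 to 0.93). EEF1AKMT4 mRNA read 16.4 and 13.9 CPM against 11.9 and 17.3 CPM (-0.05, 95% interval -1.02 to 0.92). EEF2KMT mRNA read 23.3 and 22.5 CPM against 19.4 and 26.3 CPM (-0.0049, 95% interval -0.94 to 0.93). The point estimates lay close to 0, while each interval still allowed a difference of about a doubling in either direction.

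**Figure D3:**
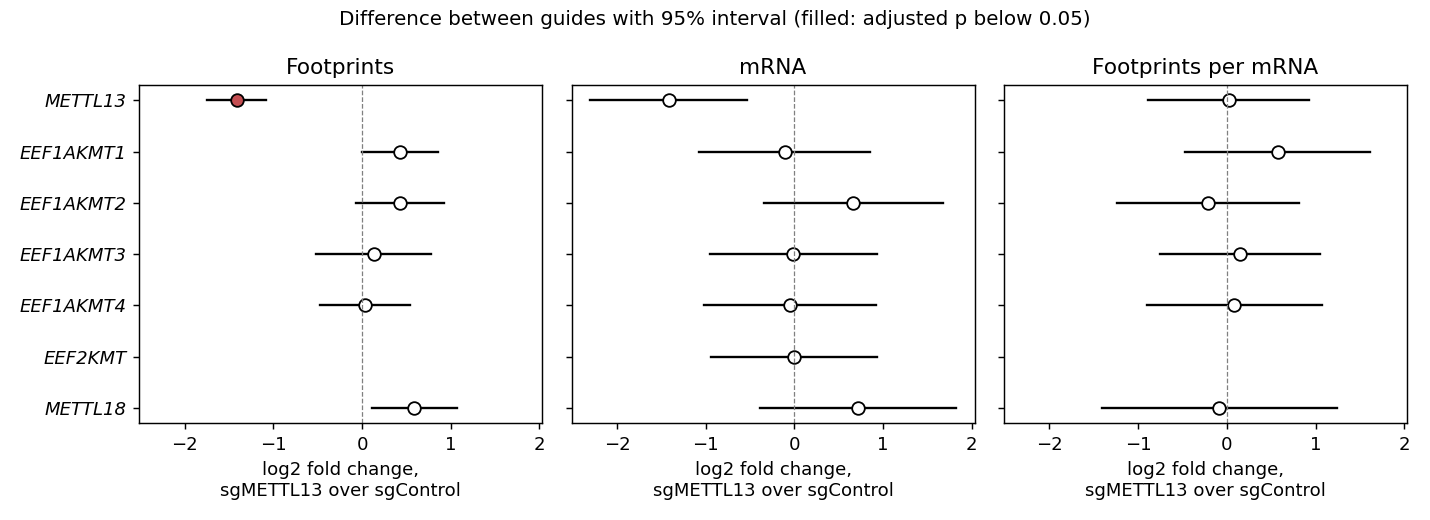
Log2 fold change of each methyltransferase gene (sgMETTL13 over sgControl) with its 95% interval from edgeR, for footprints, mRNA and footprints per mRNA; filled points passed at an adjusted p below 0.05. The METTL13 footprint change of -1.41 is the filled point, and the mRNA intervals are wider than those of footprints for the 6 genes with both; EEF2KMT has no footprint value.

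The ratio of footprint CPM to mRNA CPM differed among the methyltransferases. In sgControl, EEF1AKMT1 had 2.00 footprint CPM per mRNA CPM, at percentile 76.4 of 10446 genes, and METTL18 1.66, at percentile 71.4. METTL13 stood at percentile 45.8, EEF1AKMT2 at 36.4 (0.57), EEF1AKMT4 at 32.2 (0.49) and EEF1AKMT3 at 14.6 (0.22). EEF1AKMT3 thus had the lowest ratio of the 6, in sgMETTL13 as well (0.24, percentile 16.5). These ratios were not corrected for untranslated length. Whether footprints were counted over coding sequence alone is not given in the sources used here.

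Between guides, no member passed in footprints per mRNA. EEF1AKMT1 had the highest estimate, 0.57 on the log2 scale (SE 0.464, 95% interval -0.47 to 1.62), with its ratio at 2.95 in sgMETTL13. With 1 library left out it ran from 0.30 (without sgControl footprint replicate 2) to 0.93 (without sgControl footprint replicate 1). EEF1AKMT2 read -0.21, METTL18 -0.08, EEF1AKMT4 0.08 and EEF1AKMT3 0.15, with standard errors of 0.400 to 0.590, and the edgeR adjusted p was 0.999 for each member.

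The genes whose pattern over the 8 libraries was most like that of METTL13 were CYB5A (r = 0.97), MYO1E (0.97), URB2 (0.97), TMPRSS4 (0.95) and PITPNC1 (0.93). Likeness was Pearson's r of log2 CPM centred within each assay, over 8 libraries and 10446 genes, and since METTL13 differs mainly between guides, it ranks genes with a steady difference between guides and is given as a description. Their differences were far smaller: sgMETTL13 footprints stood at 87.5% and 91.2% of the sgControl mean in URB2 and at 68.8% and 62.6% in TMPRSS4, and none of the 5 passed in footprints or mRNA. CYB5A encodes cytochrome b5, MYO1E a class I myosin, URB2 a ribosome biogenesis protein, TMPRSS4 a transmembrane serine protease and PITPNC1 a phosphatidylinositol transfer protein. Among the members, r with METTL13 was -0.83 for EEF1AKMT2, -0.69 for METTL18, -0.40 for EEF1AKMT3, -0.24 for EEF1AKMT1 and 0.20 for EEF1AKMT4.

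**Figure D4:**
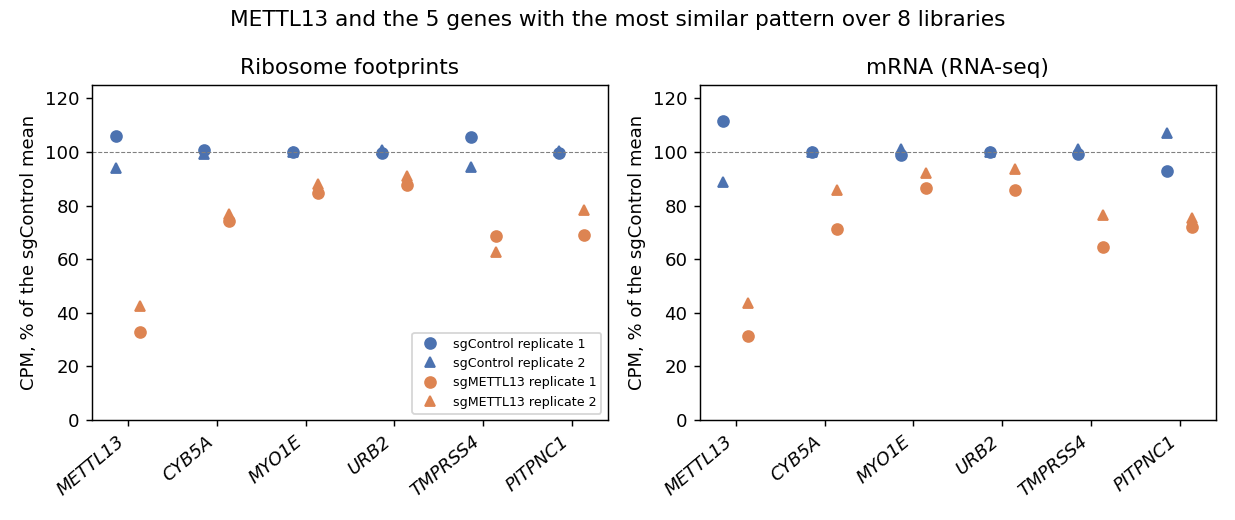
CPM of METTL13 and of the 5 genes with the most similar pattern, as a percentage of each gene's sgControl mean, for footprints (left) and mRNA (right), 1 point per library. METTL13 keeps 31.3% to 43.5% in sgMETTL13, while the 5 other genes lie between 62.6% and 93.5%.

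The substrate genes moved in several directions in footprints. EEF1A1 footprints, at 20.0 to 23.7 CPM in sgControl and 40.5 to 41.5 CPM in sgMETTL13, rose by 0.90 (SE 0.166, edgeR adjusted p = 0.000354), and EEF1A2, the second eEF1A gene, fell by 0.55 (SE 0.156, edgeR adjusted p = 0.0117). The EEF1A1 change rested on 196 and 117 footprint counts in sgControl and 408 and 369 in sgMETTL13. Its RNA counts ran from 191680 to 428464, and the EEF1A1 call is uncertain for the reason given below. ETF1, the substrate gene of N6AMT1, rose by 0.51, with 127.1 and 106.4 CPM in sgControl against 173.4 and 159.2 CPM (SE 0.135, edgeR adjusted p = 0.0078). Of the 5 substrate genes, 3 thus passed, where 21.0% of all genes tested passed in footprints, and 4 (these 3 and RPL3) did not overlap between guides, where 64.1% of all genes did not. EEF2, the EEF2KMT substrate gene, read 2955 and 3181 CPM against 3071 and 3354 CPM (0.07, SE 0.115, edgeR adjusted p = 0.726). RPL3, the METTL18 substrate gene, read 53.7 and 56.4 CPM against 61.1 and 78.4 CPM (0.34, SE 0.151, edgeR adjusted p = 0.104), and with 1 footprint library left out RPL3 ran from 0.15 (without sgMETTL13 replicate 2) to 0.50 (without sgMETTL13 replicate 1). EEF2 ran from 0.0034 to 0.12 in the same way. EEF1A2 lost its call without sgControl footprint replicate 2 (-0.44) or sgMETTL13 footprint replicate 2 (-0.47), and ETF1 without sgControl footprint replicate 2 (0.38) or sgMETTL13 footprint replicate 1 (0.44), so that 1 substrate gene passed without sgControl footprint replicate 2.

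In mRNA none of the 5 substrate genes passed, with fold changes from -0.14 to 0.09. Against their mRNA, the footprints of EEF1A1 and RPL3 gave low ratios in sgControl, at percentiles 0.0383 and 1.11 of all genes, while EEF2, which opens with the same kind of pyrimidine run, stood at percentile 53.3. ETF1 stood at percentile 24.1 and EEF1A2 at 82.2. EEF1A1 and RPL3 have pseudogene copies that can share short reads, so their footprint levels, their footprint differences between guides and the EEF1A1 call are uncertain.

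TRMT112 activates a group of methyltransferases that includes N6AMT1. TRMT112 itself read 166.1 and 139.9 CPM in sgControl footprints against 156.8 and 186.6 CPM with the METTL13 guide (0.16, SE 0.136, edgeR adjusted p = 0.413). Of the 7 genes of this group (TRMT112, BUD23, METTL5, ALKBH8, TRMT11, THUMPD2 and THUMPD3), 1 rose, 1 fell and 5 did not pass, a count near the 21.0% of all genes tested that passed in footprints, with a median of 0.16 against 0.01 over all genes. With 1 footprint library left out the count ran from 0 (without either replicate 2) to 3 (without sgControl replicate 1). THUMPD3, a tRNA guanosine methyltransferase, rose from 39.7 and 31.3 CPM to 53.0 and 56.1 CPM (0.61, edgeR adjusted p = 0.00607). BUD23, which methylates 18S rRNA, read 169.4 and 221.3 CPM against 140.2 and 139.6 CPM (-0.48, edgeR adjusted p = 0.0128). THUMPD3 lost its call without either replicate 2 of the footprints (0.45 without that of sgControl, 0.57 without that of sgMETTL13). BUD23 kept its call only when sgControl footprint replicate 1 was the library left out, and read -0.28 without sgControl footprint replicate 2.

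Arginine methyltransferases, which act on many proteins, likewise gave 1 rise and 1 fall among 8 tested in footprints (median -0.08), again near the 21.0% of all genes that passed. PRMT6, a nuclear enzyme that methylates histone H3, read 37.1 and 58.8 CPM in sgControl against 24.8 and 24.9 CPM with the METTL13 guide (-0.94, SE 0.180, edgeR adjusted p = 0.00053). This call held with any 1 footprint library left out, with values of -1.24 to -0.58. PRMT9 read 13.9 and 7.35 CPM against 16.8 and 17.5 CPM (0.65, SE 0.227, edgeR adjusted p = 0.0415), with sgControl replicate 2 far below the other libraries. It lost its call with DESeq2, with library totals alone and without each footprint library other than sgControl replicate 1, reaching 0.29 without sgControl replicate 2.

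Of the relatives with other substrates, none of 11 seven-beta-strand methyltransferases tested passed in footprints by edgeR, DESeq2 or limma voom, with a median of 0.06, where edgeR called 21.0% of all genes. METTL9 (0.44, SE 0.184, edgeR adjusted p = 0.0860), a histidine methyltransferase, and METTL23 (0.69, SE 0.324, edgeR adjusted p = 0.124) had an unadjusted p below 0.05. Without sgControl footprint replicate 1, 1 of the list passed. None of the 7 genes of diphthamide synthesis, the other modification of eEF2, passed by any of these 3 tools (median 0.01, beside the same 21.0% of all genes in edgeR), and none had an unadjusted p below 0.05; the smallest p belonged to DPH1 (-0.34, SE 0.181) and DPH5, the methyltransferase of that pathway (0.28, SE 0.150).

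Genes that make and recycle S-adenosylmethionine gave 1 rise among 7 tested in footprints (median 0.12), where 8.94% of all genes tested passed as higher and 21.0% in either direction. MAT2B, the regulatory subunit of methionine adenosyltransferase, rose by 0.71, with 32.1 and 25.5 CPM in sgControl against 42.3 and 52.4 CPM (SE 0.166, edgeR adjusted p = 0.00314). The call was lost without sgMETTL13 footprint replicate 2 (0.55, edgeR adjusted p = 0.109). MAT2A, the catalytic subunit, read 403.5 and 415.5 CPM against 420.1 and 438.7 CPM (0.07, edgeR adjusted p = 0.727) and was named after its values were seen. No gene of these 4 lists or of the TRMT112 group passed in mRNA or in footprints per mRNA by edgeR.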

How the data were processed

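Per the labels' protocols, mRNA was selected on oligo(dT) beads and sequenced as stranded 150 bp read pairs, and ribosomes with their footprints were captured by a puromycin analog. The deposited values are raw counts per gene symbol that the authors made from their reads. The submitters' processing notes name Bowtie 1.2.2, HISAT2 2.0.4, cutadapt 1.18, UMI-tools and featureCounts, and hg38 as the build, without order or assay. The annotation, strand setting and treatment of multiply aligned reads are not given in the sources used here.

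Samples were grouped by their labels. The main tests were quasi-likelihood F tests in edgeR 4.0.16 under R 4.3.3, on the 4 libraries of an assay, with TMM scaling and edgeR's own low-count filter applied per assay. Footprints per mRNA came from the interaction of assay and guide over all 8 libraries. P-values were adjusted over all genes tested. A standard error is the log2 fold change divided by the square root of its F statistic. The common coefficient of variation between libraries was 0.0992 in footprints, 0.337 in mRNA and 0.261 in the model of footprints per mRNA. The scripts were tested on simulated data.

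The members and lists were chosen with earlier results of these data known. Named genes were the members, the substrates, at most 4 passing members of each other list (or the 2 with the smallest p), and the 5 genes most like METTL13. Alternatives were other scalings, no filter, DESeq2 1.42.0, limma voom (limma 3.58.1), a replicate block, 1 fit over all libraries and leaving out each library. A planned level per codon was not computed, so CPM levels are not compared between genes. The ratio of footprint CPM to mRNA CPM is, without correction for untranslated length. A count of 0 allows up to 3 counts, at most 0.144 CPM in RNA and 0.495 CPM in footprints, for counting error only. An annotated start of 1 gene is not reported here.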

Additional observations from a re-analysis of the deposited data

How the results depend on the processing

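METTL13 footprints kept their direction in all 12 alternatives and their call in 11. In 1 fit over all 8 libraries the value stayed at -1.41 but did not pass (edgeR adjusted p = 0.418), where 0 genes passed in footprints, against 2245 in the fit of the footprint libraries alone and 1371 with DESeq2. The common coefficient of variation was 0.0992 in the fit of the footprint libraries alone. It was 0.261 in the model of footprints per mRNA, which also spans all 8 libraries. With each library left out, METTL13 ran from -1.61 to -1.24 in footprints, from -1.68 to -1.13 in mRNA and from -0.29 to 0.30 in footprints per mRNA, and the genes that passed ran from 701 to 3018, from 0 to 2509 and from 0 to 1384. Footprints fell to 824 calls without sgControl replicate 2 and to 701 without sgMETTL13 replicate 2. Calls in mRNA numbered 27 without sgMETTL13 RNA replicate 1 and 2509 without replicate 2, and in footprints per mRNA 500 and 1384. DESeq2 called 5 genes in footprints per mRNA. The cause of these differences was not tested.

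Signs of values near 0 turned with a library left out: EEF1AKMT4 from -0.15 to 0.20 in footprints; in mRNA EEF1AKMT1 from -0.28 to 0.084, EEF1AKMT3 from -0.062 to 0.054, EEF1AKMT4 from -0.35 to 0.26, EEF2KMT from -0.25 to 0.27, EEF1A2 from -0.24 to 0.29, EEF2 from -0.46 to 0.22, ETF1 from -0.45 to 0.51 and RPL3 from -0.38 to 0.24; in footprints per mRNA EEF1AKMT2 from -0.55 to 0.16, EEF1AKMT4 from -0.24 to 0.42, METTL18 from -0.57 to 0.57 and EEF2 from -0.17 to 0.57. EEF1A2 mRNA read -0.0089 by library totals alone, and METTL18 footprints per mRNA read 0.041 with limma voom and 0.041 with the replicate block.

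The labels number replicates 1 and 2 in every group without saying that a number marks a shared culture. Same-numbered libraries deviated together in RNA (r = 0.44 across genes) and apart in footprints (r = -0.21). Between RNA and footprints of the same guide, r was 0.18 in sgControl and 0.013 in sgMETTL13. Between guides it was 0.30 for sgMETTL13 RNA with sgControl footprints and -0.012 for sgControl RNA with sgMETTL13 footprints. With the replicate block METTL13 read -1.42 in footprints, -1.43 in mRNA and 1729 genes passed in footprints, and it changed no call of a member, substrate or named list gene. A block with the footprint numbers crossed, chosen after seeing the data, gave 3 calls among the members against 1. EEF1AKMT1 (0.46) and METTL18 (0.61) were added. Calls over all 10714 genes tested also rose in that block, to 3220 against 2245 in the main fit. Adding the readthrough counts to EEF1AKMT4, also chosen after seeing the data, left its footprint value uncalled. Ranking likeness by library totals kept 4 of the 5 genes most like METTL13.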
